A study of Mus musculus with 2 samples.

Results

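The genes described here encode 7 parts of the angiotensin and endothelin systems: Agt, Ace, Agtr1a, Edn1, Ednra, Ednrb and Ece1. They were chosen by symbol from the 31054 genes counted in both libraries, and all 7 were found. The cells were CD31- CD45- cells of gonadal white adipose tissue (gWAT) from 18-month-old male mice of the genotype p16-CreERT2/R26-LSL-tdTomato. In these animals tamoxifen activates a Cre recombinase made from the p16 gene, which opens a tdTomato reporter. All mice received tamoxifen, so both groups share the genotype and the treatment and differ in the fluorescence by which they were sorted. The Tom+ library held cells with tdTomato fluorescence and the Tom- library held cells without it, with 1 library for each. How many mice were pooled is not given in the sources used here. A reporter opened once stays on, so Tom+ marks cells, or descendants of cells, in which the p16-driven Cre was active under tamoxifen, whether or not they held p16 RNA at collection.

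Both systems make small peptides by cutting a secreted precursor. Agt encodes angiotensinogen, from which renin releases angiotensin I, and Ace encodes the enzyme that trims angiotensin I to the active angiotensin II. Agtr1a encodes the main rodent receptor for angiotensin II. Edn1 encodes the precursor of endothelin-1, Ece1 the protease that releases the mature peptide, and Ednra and Ednrb its receptors. White adipose tissue is known as a source of angiotensinogen outside the liver, and endothelin receptor B is known from endothelial cells and macrophages as well as from other lineages.

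The coding stretches of the peptides themselves are shown because the report turns on which cells carry the precursor RNA, and because a second endothelin gene, Edn2, was found in mesothelial cells. They were read from the longest open reading frame of each GENCODE vM21 transcript, 5′ to 3′. For Agt, capitals mark the 24 bases of the angiotensin II codons, and the lower-case bases are the codons that Ace removes from angiotensin I. For Edn1 and Edn2, capitals mark the bases at which they differ.
Agt: GACCGCGTATACATCCACCCCTTCcatctc
Edn1: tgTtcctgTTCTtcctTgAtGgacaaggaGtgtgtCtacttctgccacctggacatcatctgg
Edn2: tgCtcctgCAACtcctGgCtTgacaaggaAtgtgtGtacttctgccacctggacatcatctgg
The Edn1 and Edn2 stretches each hold 63 bases for a peptide of 21 residues. They differ at 10 bases, and the encoded peptides differ at 3 residues. The counts below come from the 3′ end of each transcript, not from these stretches, so the 2 endothelin genes are told apart by their own 3′ sequence.

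In GRCm38, Agt (ENSMUSG00000031980) lies at chr8:124556534-124569706 on the minus strand, and Ace (ENSMUSG00000020681) at chr11:105967945-105989964 on the plus strand. Agtr1a (ENSMUSG00000049115) lies at chr13:30336441-30382867 on the plus strand, where an annotated gene on the same strand, Gm48161, overlaps it. Edn1 (ENSMUSG00000021367) lies at chr13:42301476-42307990 on the plus strand. The receptors Ednra (ENSMUSG00000031616) and Ednrb (ENSMUSG00000022122) lie on minus strands at chr8:77663031-77724464 and chr14:103814625-103844402, and Ece1 (ENSMUSG00000057530) lies at chr4:137862237-137965229 on the plus strand. How reads shared by Agtr1a and Gm48161 were assigned was not tested. The other overlaps in the annotation (Gm11651 with Ace, Gm47118 with Edn1, 4933431K23Rik with Ednra, Gm13012 with Ece1) are on the opposite strand.

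The Tom+ library held 61119807 unique molecular identifiers (UMIs, each counting 1 captured RNA molecule) over 5566 barcodes, and the Tom- library 96872394 over 11838. Barcodes were kept as cells when their gene number lay above 1000 and below 7000 and under 8% of their UMIs were mitochondrial, which left 3524 and 6717. A cell was classed as mesothelial when Msln, Upk3b, Krt19, Lrrn4 and Upk1b summed to at least 10 UMIs, and as stromal when they summed to under 5. This gave 250 mesothelial and 3263 stromal cells in the Tom+ library, and 1887 and 4800 in the Tom- library, while 11 and 30 cells fell between the limits. Of 11 mesothelial markers that the rule did not use, all 11 were at 5 or more CPM (UMIs of a gene per 1000000 UMIs of the group) in both mesothelial groups, and their summed levels were 12062 (Tom+) and 11975 CPM (Tom-), against 297 and 504 CPM in the stromal groups. The stromal class was taken as mostly progenitors from Pdgfra, at a median of 4 UMIs per cell in Tom+ and 3 in Tom-. All 8 adipose progenitor markers reached 5 CPM in mesothelial cells too. They summed to 25809.4 CPM in stromal and 11602.5 in mesothelial cells of Tom+, and to 28560.4 and 13094.1 in Tom-. Only Cd34 of them was higher in mesothelial cells, at 435 against 294 CPM in Tom+ and 417 against 292 in Tom-. Of interstitial progenitor markers, Dpp4, Sema3c and Wnt2 were higher and Pi16 and Cd55 lower in mesothelial cells of both libraries. The stromal class also took in other cells. Among them were 182 Tom+ and 94 Tom- cells with at least 10 UMIs of macrophage, endothelial, mast cell or B lineage genes. These limits were chosen after the data were seen. The reporter followed the sort: in stromal cells tdTomato RNA was at 211 CPM in Tom+ against 13.1 CPM in Tom-, and in mesothelial cells at 780 against 8.25 CPM. Cdkn2a, the gene of p16, was at 4.66 CPM in Tom+ against 5.79 CPM in Tom- stromal cells, and at 12.4 against 8.47 CPM in mesothelial cells. Its log2 ratios of Tom+ over Tom- were -0.31 (-0.56 to -0.069) and 0.55 (0.14 to 0.94). The level of Cdkn2a was thus not higher in the stromal cells of this Tom+ library, from values near 5 CPM. By qPCR on sorted progenitors of aged gWAT, the paper reports more p16 RNA in Tom+ than in Tom- cells. Which transcripts of Cdkn2a the counts came from was not tested.

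The libraries shared barcodes. In all, 2224 barcodes were listed in both, or 40.0% of those of Tom+ and 18.8% of those of Tom-. Of these, 497 passed the filter only in Tom+, with a median of 42.1 times the UMIs of their Tom- copy, and 275 only in Tom-, with a median of 53.4 times. Only 9 passed in both. Among the cells used, 404 stromal and 100 mesothelial cells of Tom+ had a shared barcode, against 75 and 207 of Tom-. For the angiotensin and endothelin system genes named at the start, results are given with and without these cells where leaving them out changed a call. Whether the calls on the other pathway and signalling genes hold without these cells was not tested.

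With 1 library per group there are no replicates, and no test between the groups was possible. What differs between the sorted populations cannot be told apart from what differs between their 2 preparations. Intervals are exact at 95% (Poisson for a level, Clopper-Pearson for a share or a ratio) and cover counting error only. A gene was counted as past the fold when its ratio reached 1.5 in either direction and its mean over both groups was at least 5 CPM.

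Ace and Agt, the genes of angiotensin II formation, were stromal genes in both libraries. Their levels in stromal cells were more than 15 times those in mesothelial cells, and most of the mesothelial UMIs came from a small set of mesothelial cells that also carried stromal RNA. In stromal cells Agt was at 229 CPM (11691 UMIs) for Tom+ and 226 CPM (13099 UMIs) for Tom-, against 7.70 CPM (41 UMIs) and 14.4 CPM (466 UMIs) in mesothelial cells. The log2 ratio of mesothelial over stromal cells was -4.89 (-5.37 to -4.45) in Tom+ and -3.97 (-4.11 to -3.84) in Tom-. Ace was at 521 CPM (26645 UMIs) and 411 CPM (23793 UMIs) in Tom+ and Tom- stromal cells, and at 22.5 CPM (120 UMIs) and 26.7 CPM (865 UMIs) in mesothelial cells. Its log2 ratios were -4.53 (-4.80 to -4.27) and -3.94 (-4.04 to -3.84). Both genes sat below the 1st percentile of all genes tested in each library.

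**Figure D1:**
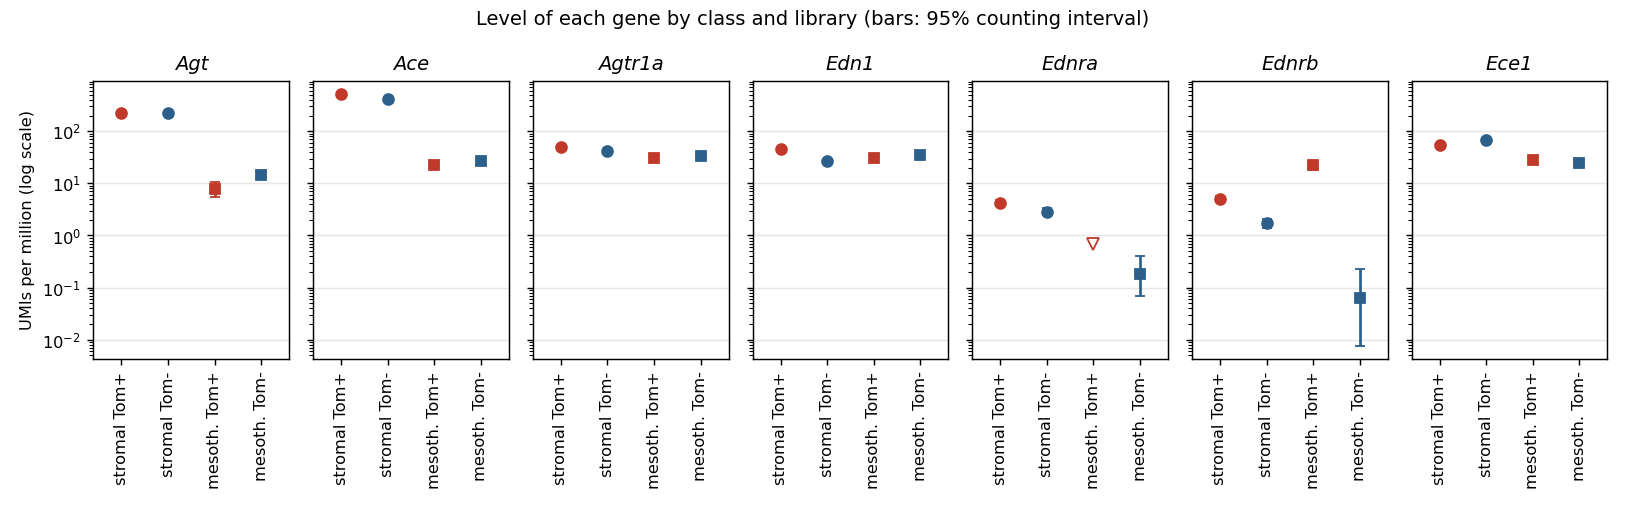
Level of each gene in CPM (log axis) in stromal cells (circles) and mesothelial cells (squares) of the Tom+ (red) and Tom- (blue) libraries. Bars are 95% counting intervals, smaller than the symbol for most points, and the open triangle is the upper bound for Ednra in Tom+ mesothelial cells, where no UMI was found. Agt and Ace drop by more than 10 times from stromal to mesothelial cells, Agtr1a and Edn1 stay between 26.8 and 49.7 CPM in all 4 groups, and the receptors Ednra and Ednrb are the lowest and least even.

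At 10 or more UMIs of Pdgfra, Dpt and Lum together, a limit chosen after the data were seen, 149 of 1887 Tom- mesothelial cells (7.90%) also carried stromal genes. These cells held 77.3% of the Agt UMIs and 77.3% of the Ace UMIs of their class, and 11.9% of all its UMIs. Their median depth was 24627 UMIs, against 14191 for the rest. In Tom+, 13 of 250 mesothelial cells (5.20%) held 65.9% of the Agt and 72.5% of the Ace UMIs. Without them, the mesothelial level of Agt was 2.82 CPM for Tom+ and 3.72 CPM for Tom-, and that of Ace 6.65 and 6.88 CPM. The same cells held 9.94% of the Agtr1a UMIs in Tom+ and 13.3% in Tom-, against 6.75% and 11.9% of all UMIs. Most Agtr1a UMIs of the class thus lay outside them. The mesothelial level of Agtr1a was 29.2 and 33.7 CPM without them, against 30.2 and 34.3 CPM with them. The part that more than 1 cell in a droplet plays in these cells was not tested.

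Counted by cells, the picture was the same. Each cell was thinned at random to 7563 UMIs so that depth could not set the shares, and shallower cells were left out. An Ace UMI was found in 91.0% (89.9 to 92.0) of stromal cells in Tom+ and 86.9% (85.9 to 88.0) in Tom-, and in 8.50% (5.34 to 12.7) and 9.68% (8.34 to 11.1) of mesothelial cells. An Agt UMI was found in 51.7% (49.9 to 53.5) and 47.5% (46.0 to 49.0) of stromal cells, and in 3.64% (1.68 to 6.80) and 4.53% (3.61 to 5.60) of mesothelial cells. Without thinning the Agt shares were 58.4%, 50.3%, 6.40% and 7.74%, and the Ace shares 93.4%, 89.0% and, in mesothelial cells, 16.4% and 283 of 1887 cells. As a guide to free RNA, the 17 Tom+ and 10 Tom- cells with mast cell genes, which should lack both, were examined. An Agt UMI was found in 1 and 1 of them and an Ace UMI in 2 and 2. Their median depths were 5944 and 4549 UMIs, against 14235 and 11270 for the stromal class. Agt was at 65.8 and 17.4 CPM in them (8 and 1 UMIs), and Ace at 156 and 140 CPM (19 and 8 UMIs). These levels lie above those of mesothelial cells and come from few cells, so they do not set a background level. The 139 Tom+ and 73 Tom- cells with B lineage genes were deeper, at medians of 39387 and 28198 UMIs. An Agt UMI was found in 62 and 27 of them, at 75.6 and 70.9 CPM. An Ace UMI was found in 80 and 43, at 90.3 and 90.5 CPM. These levels too lie above the mesothelial ones. The part that free RNA or shared droplets play in them was not tested. The Agt UMIs of mesothelial cells went with Ace: an Ace UMI was found in 54.3% (42.9 to 65.4) of the 81 thinned Tom- mesothelial cells with Agt and in 7.56% (6.35 to 8.91) of those without it. In stromal cells that gap was small, 88.7% (87.3 to 90.1) against 85.3% (83.8 to 86.8) in Tom-. All of Agt, Ace and Agtr1a were found together in 14.4% (13.2 to 15.7) of the thinned stromal cells of Tom+, against 10.7% (9.81 to 11.7) in Tom-. Whether this exceeds what the single shares give was not tested. An Agtr1a UMI was found in 29.3% of Tom+ stromal cells with Agt and 30.0% of those without, and in 25.9% and 24.9% in Tom-. With and without Ace the shares were 30.7% and 19.0% in Tom+, and 25.8% and 23.1% in Tom-.

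Agtr1a, the receptor, differed less between the classes than Agt and Ace. In stromal cells it was at 49.7 CPM (2539 UMIs) for Tom+ and 41.4 CPM (2395 UMIs) for Tom-, and at 30.2 CPM (161 UMIs) and 34.3 CPM (1109 UMIs) in mesothelial cells. The log2 ratio of mesothelial over stromal cells was -0.72 (-0.96 to -0.49) in Tom+ and -0.27 (-0.38 to -0.17) in Tom-. An Agtr1a UMI was found in 29.6% (28.0 to 31.3) and 25.4% (24.1 to 26.8) of thinned stromal cells, and in 17.4% (12.9 to 22.7) and 19.6% (17.8 to 21.5) of thinned mesothelial cells, or 45.1%, 34.6%, 37.2% and 33.5% without thinning. Among the shallower cells with mast cell genes, 1 of 17 in Tom+ (1 UMI) and 1 of 10 in Tom- (2 UMIs) had one, or 8.22 and 34.9 CPM, so these few UMIs do not set a background level. Agtr1b, the second rodent gene for this receptor, had no UMI in any of the 4 groups, and neither did Mas1, the receptor of angiotensin 1-7. Agtr2, the other angiotensin II receptor, had 4 UMIs in Tom+ and 17 in Tom- stromal cells and 0 in both mesothelial groups.

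Ece1, the endothelin-converting protease, was higher in stromal cells of both libraries. It was at 55.0 CPM (2812 UMIs) and 68.4 CPM (3957 UMIs) in Tom+ and Tom- stromal cells, and at 28.6 CPM (152 UMIs) and 24.2 CPM (783 UMIs) in mesothelial cells. Its log2 ratios of mesothelial over stromal cells were -0.95 (-1.19 to -0.71) and -1.50 (-1.61 to -1.39). A UMI of Ece1 was found in 33.4% (31.7 to 35.1) and 37.5% (36.0 to 39.0) of thinned stromal cells and in 17.8% (13.3 to 23.2) and 15.3% (13.6 to 17.0) of thinned mesothelial cells, or 49.7%, 47.5%, 37.6% and 29.9% without thinning. Among cells with mast cell genes, 1 of 17 in Tom+ and 2 of 10 in Tom- had an Ece1 UMI, or 8.22 and 34.9 CPM from 1 and 2 UMIs.

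Edn1 had no fixed order between the classes. It was at 46.1 CPM (2358 UMIs) in Tom+ stromal, 26.8 CPM (1550 UMIs) in Tom- stromal, 30.6 CPM (163 UMIs) in Tom+ mesothelial and 35.4 CPM (1144 UMIs) in Tom- mesothelial cells. The log2 ratio of mesothelial over stromal cells was thus -0.59 (-0.83 to -0.36) in Tom+ and 0.40 (0.29 to 0.51) in Tom-. Without the cells with a shared barcode, Edn1 in Tom+ mesothelial cells was at 20.3 CPM and the log2 ratio in that library was -1.30. Edn1 RNA was concentrated in few cells: the 1% of cells with the most Edn1 held 33.5% of its UMIs in Tom+ stromal, 37.9% in Tom- stromal and 33.0% in Tom- mesothelial cells, and single cells reached 69, 85 and 53 UMIs. For Agtr1a the same share was 7.52%, 8.77% and 12.0%. Edn2, whose peptide stretch is shown above, was at 8.19 CPM (265 UMIs) in Tom- and 3.57 CPM (19 UMIs) in Tom+ mesothelial cells, and had 4 and 3 UMIs in all stromal cells of the Tom- and Tom+ libraries. Its log2 ratio of mesothelial over stromal cells was 6.89 (5.52 to 8.78) in Tom- and 5.93 (4.16 to 8.33) in Tom+. In both libraries its mean over the classes was below the 5 CPM limit, so Edn2 enters no count of genes past the fold there. Edn3 had no UMI in any group.

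Ednra, which prefers endothelin-1 and endothelin-2 over endothelin-3, was a low stromal gene. In stromal cells it was at 4.15 CPM (212 UMIs) for Tom+ and 2.85 CPM (165 UMIs) for Tom-. In mesothelial cells it had 0 of 5322983 UMIs in Tom+ and 6 UMIs in Tom- (0.185 CPM). Set against 3 counts over the group, Ednra was at least 7.36-fold lower in Tom+ mesothelial than in Tom+ stromal cells, while the exact interval of the log2 ratio reached up to -2.57, and the log2 ratio was -3.94 (-5.41 to -2.79) in Tom-. None of 250 Tom+ mesothelial cells had an Ednra UMI, which allows a share of cells with a UMI of up to 1.20% by 3 counts, or 1.46% by the exact interval. This does not limit the share of cells that express Ednra, since few stromal cells had a UMI either. A UMI of Ednra was found in 2.17% (1.68 to 2.76) and 1.93% (1.53 to 2.39) of thinned stromal cells, against 0.168% (0.0346 to 0.490) of thinned Tom- mesothelial cells, and in 4.54%, 2.96% and 0.318% without thinning. Of the 212 Tom+ stromal UMIs, 95 lay in the 404 cells with a shared barcode, and without them the level was 3.04 CPM.

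Past 1.5-fold between mesothelial and stromal cells, 5 of the 6 genes that reached 5 CPM were lower in mesothelial cells of the Tom+ library (Agt, Ace, Agtr1a, Edn1 and Ece1) and 1 was higher (Ednrb, which had a log2 ratio of 0.031 without shared barcodes). Of 10240 genes tested, 16.2% were lower and 22.6% higher. Edn1 passed at a fold of 1.51. Without the mesothelial cells that carried stromal genes it was within 1.5-fold, at 31.2 CPM in mesothelial against 46.1 CPM in stromal cells. In the Tom- library, 3 of 5 were lower (Agt, Ace and Ece1) and 0 higher, against 13.9% and 21% of 10019 genes. The median log2 ratio of all genes was 0.11 in Tom+ and 0.14 in Tom-, and the direction of each of these genes was the same after scaling by it. The median over the genes described was -0.83 in Tom+ and -1.50 in Tom-. With that scaling the Tom- split of all genes was 1688 higher and 1706 lower, in place of 2105 and 1392.

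**Figure D2:**
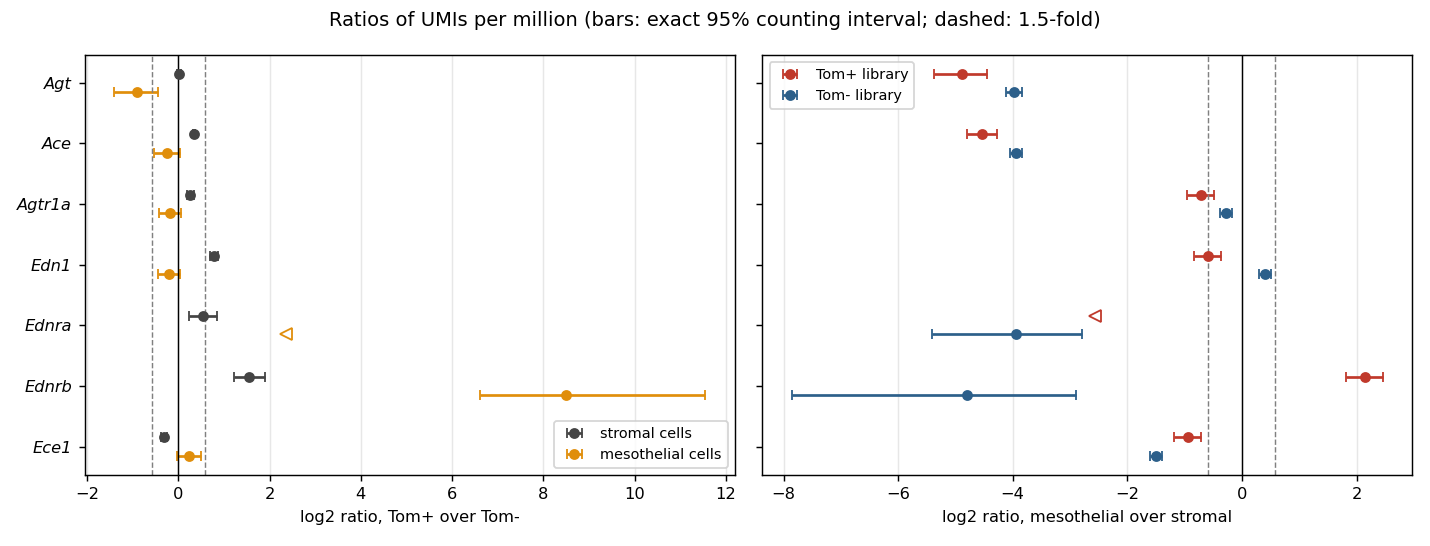
Log2 ratios of Tom+ over Tom- (left; stromal cells grey, mesothelial cells orange) and of mesothelial over stromal cells (right; Tom+ red, Tom- blue). Bars are exact 95% counting intervals, dashed lines mark 1.5-fold, and open triangles are upper bounds of the ratio for Ednra, which had no UMI in Tom+ mesothelial cells. Agt and Ace lie near -4 to -5 on the right, and Ednrb points in opposite directions in the libraries.

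Ednrb stood apart from the other genes because nearly all of its UMIs were in a few cells with the genes of other lineages. It was at 5.03 CPM (257 UMIs) in Tom+ stromal, 22.2 CPM (118 UMIs) in Tom+ mesothelial, 1.71 CPM (99 UMIs) in Tom- stromal and 0.0618 CPM (2 UMIs) in Tom- mesothelial cells. Only 18 Tom+ stromal, 12 Tom+ mesothelial, 5 Tom- stromal and 2 Tom- mesothelial cells had any. In Tom+, 363 of the 394 Ednrb UMIs of all kept cells (92.1%) lay in 40 cells with at least 10 UMIs of C1qa, C1qb, C1qc, Mrc1 and Csf1r, which are macrophage genes. Of these 40 cells, 23 were in the stromal class, 14 in the mesothelial class and 3 between the limits. Another 22 UMIs lay in 3 cells with at least 10 UMIs of endothelial genes (Cdh5, Cldn5, Vwf, Emcn, Egfl7, Flt4, Mmrn1 and Prox1).

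In Tom-, 73 of 101 Ednrb UMIs (72.3%) lay in 7 cells with endothelial genes, of which 2 cells had any, and the 9 cells with macrophage genes had 0. Without these cells and those with mast cell or B lineage genes, Ednrb was at 0.111 CPM (5 UMIs) in Tom+ stromal, 0.605 CPM (3 UMIs) in Tom+ mesothelial, 0.468 CPM (26 UMIs) in Tom- stromal and 0.0620 CPM (2 UMIs) in Tom- mesothelial cells. The log2 ratio of mesothelial over stromal cells was then 2.45 in Tom+, from 3 and 5 UMIs, and -2.91 in Tom-, from 2 and 26. The sort had gated CD45+ and CD31+ cells out. The 14 macrophage-gene cells of the Tom+ mesothelial class had a median of 26749 UMIs, 8 of them had a shared barcode, and they held 115 of the 118 Ednrb UMIs of the class. Across the marker list of immune cells, 5 of 8 genes were at 5 or more CPM in Tom+ mesothelial cells and 4 of 8 in Tom-, with summed levels of 780 and 528 CPM, and 7 and 5 of 8 in the stromal groups, with 428 and 219 CPM. No immune marker was at 0 in any group.

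**Figure D3:**
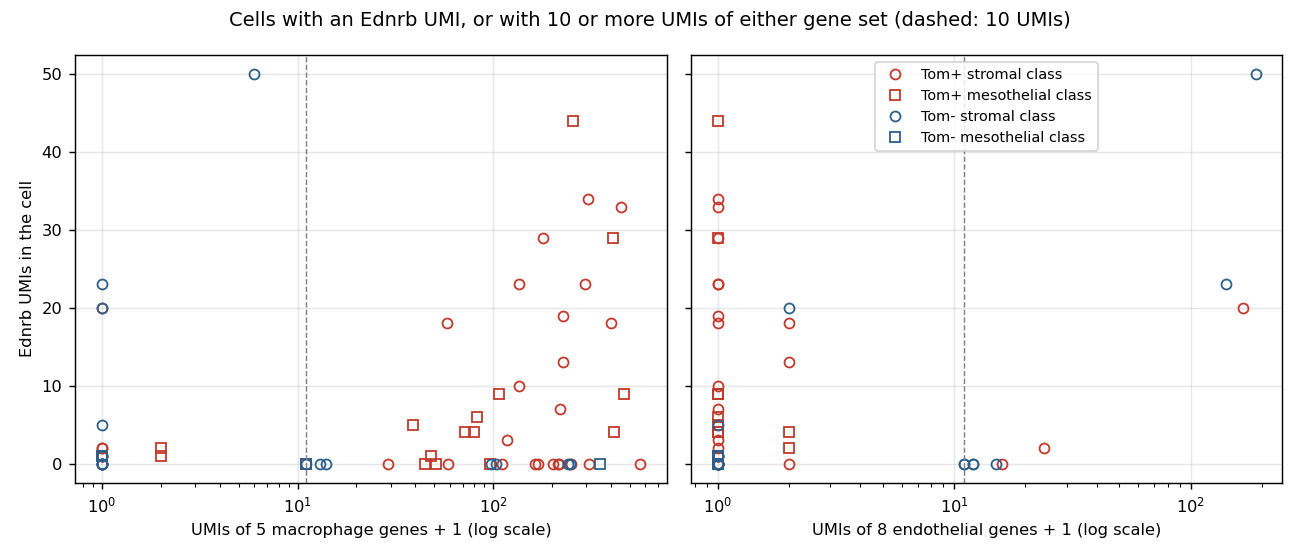
Ednrb UMIs in single cells (vertical axis) against the summed UMIs of 5 macrophage genes (left) or 8 endothelial genes (right), plus 1, on log axes. Each point is a cell with an Ednrb UMI or with 10 or more UMIs of either gene set (dashed line), in Tom+ (red) or Tom- (blue) and in the stromal (circles) or mesothelial (squares) class. Most Tom+ cells with Ednrb lie to the right of the line on the left panel, and the highest Tom- cell, at 50 UMIs, lies to the right on the right panel.

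Between the sorted groups, 1 gene passed 1.5-fold in stromal cells: Edn1 was higher in Tom+. Of the 5 genes at 5 CPM or more, the other 4 were within it and 0 were lower, against 3.86% of 9778 genes higher and 3.25% lower. The log2 ratio of Edn1 was 0.79 (0.69 to 0.88), a fold of 1.72 at percentile 98.4 of all genes. After thinning, 14.7% (13.4 to 16.0) of Tom+ stromal cells held an Edn1 UMI, against 9.22% (8.36 to 10.1) in Tom-. These shares were 20.4% and 11.6% without thinning, and 1 of 17 Tom+ and 0 of 10 Tom- cells with mast cell genes had one. Of the cells with B lineage genes, 6 of 139 in Tom+ and 4 of 73 in Tom- had an Edn1 UMI. In thinned mesothelial cells the shares were 13.0% (9.03 to 17.8) and 11.9% (10.4 to 13.5), and 22.0% and 18.3% without thinning. Ace followed in the same direction with a log2 ratio of 0.34 (0.32 to 0.37) at percentile 84.8, and Agtr1a with 0.26 (0.18 to 0.35) at percentile 76.9. Without shared barcodes the log2 ratios of Edn1, Ace and Agtr1a were 0.90, 0.49 and 0.37. Over all stromal cells together, Agt did not differ beyond counting error, with a log2 ratio of 0.016 (-0.020 to 0.052) that took either sign over the alternatives (-0.076 to 0.18). Its differences within clusters are given below. Ece1 was at -0.31 (-0.38 to -0.24), percentile 9.59, and at -0.19 without shared barcodes. The median log2 ratio of all genes in this comparison was 0.071, and that of the genes described 0.26.

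The Edn1 difference was smaller when 9 stromal clusters, described below, were given equal weight. The means were then 34.9 CPM for Tom+ and 29.5 CPM for Tom-, a log2 ratio of 0.24, which is within 1.5-fold. Such means count cluster 8, of 271 cells, as much as cluster 1, of 1682. Edn1 was lower in Tom+ in clusters 5 and 8, at folds of 0.292 and 0.106, and higher in the other 7. The fold in cluster 8 rested on 14 UMIs in 8 Tom+ cells and 51 UMIs in 7 Tom- cells. That in cluster 5 rested on 83 UMIs in 42 Tom+ cells and 150 UMIs in 20 Tom- cells. In clusters 1 to 4 the folds were 1.83, 1.51, 1.54 and 1.37. The part that the mix of clusters plays was not tested. With equal weights Ednrb (9.63 against 4.89 CPM) was the gene past 1.5-fold in place of Edn1. Its Tom+ mean rested mostly on 230 UMIs in 12 cells of cluster 8 and 22 UMIs in 2 cells of cluster 9. The Tom+ stromal-class cells with macrophage genes held 230 Ednrb UMIs. With equal weights Ece1 was at 65.7 CPM in both libraries, Agtr1a had a log2 ratio of 0.066 and Ace one of 0.30. Ednra and Ednrb were below the 5 CPM limit in the main comparison. Ednra had a log2 ratio of 0.54 (0.24 to 0.84), which was 0.071 without cells of a shared barcode. Ednrb had 1.56 (1.22 to 1.91), which was -2.08, from 5 and 26 UMIs, without the cells with genes of other lineages.

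In mesothelial cells, Ednrb was higher in Tom+ by a log2 ratio of 8.49 (6.60 to 11.5), from 118 and 2 UMIs, and Agt was lower by -0.90 (-1.40 to -0.44), from 41 and 466. These were the 2 of 6 genes past 1.5-fold, against 1.87% of 10014 genes higher and 1.16% lower. Both rested on few cells. Of the 118 Ednrb UMIs, 108 lay in 8 cells with a shared barcode, and without shared barcodes Ednrb was at 4.51 against 0.0793 CPM, a log2 ratio of 5.83, and its mean was below the 5 CPM limit. Ednrb was at 0.605 CPM in Tom+ without the cells with genes of other lineages, and Agt had a log2 ratio of -0.40 without the mesothelial cells that carried stromal genes and -0.42 without the 5% of cells with the most UMIs. Ace, Agtr1a, Edn1 and Ece1 had log2 ratios of -0.25, -0.18, -0.21 and 0.24, and the interval of each included 0. Without cells of a shared barcode, Edn1 (20.3 against 34.9 CPM, log2 ratio -0.78) and Ace (12.6 against 24.9 CPM, log2 ratio -0.98) also passed 1.5-fold, and the log2 ratio of Ece1 was -0.15. That setting removed 100 of 250 Tom+ mesothelial cells. Among all genes it gave 286 higher and 328 lower, in place of 187 and 116.

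To see how the genes varied within the stromal class, the stromal cells of both libraries were clustered together from 2000 variable genes that left out the genes described here, their pathway genes, the class markers and tdTomato. This gave 11 clusters, numbered by size, of which 9 had at least 30 cells of each library. Cluster 1 (1682 cells) was led by Car3, G0s2 and Vtn, cluster 2 (1576) by Cpxm2, Mfap4 and Il6, and cluster 3 (1332) by Chchd10, Sox4 and Peg3, with Edn1, which the clustering did not use, also among its top 10 genes. Cluster 4 (908) was led by Krtdap, Efhd1 and Dact2 with Pi16 and Sema3c among its top 10 genes, and is called interstitial progenitor-like from these markers. Cluster 5 (805) was led by Myh11, Pi15 and Ptgds, cluster 6 (685) by Vdr, Adamts9 and Thbd, cluster 7 (504) by Gsc, Aspn and Cd300lg, cluster 8 (271) by immunoglobulin genes and cluster 9 (255) by Ccl21a, Calca and Ncam1. Tom+ cells made up 74.5% of cluster 3 and 13.7% of cluster 9. Clusters built on genes that differ between the libraries separate them in part by construction.

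Agt was split sharply among these clusters. It was at 485 CPM (475 to 494) in cluster 1 and 469 CPM (456 to 481) in cluster 5, which did not differ beyond counting error. The order went on with cluster 6 at 223 CPM, cluster 3 at 186, cluster 7 at 154, cluster 2 at 128, cluster 8 at 72.5 and cluster 9 at 41.2. The interstitial progenitor-like cluster 4 was last at 16.9 CPM (14.7 to 19.3), 28.7 times below cluster 1. Both libraries gave this picture, with 555 and 462 CPM in cluster 1 and 13.4 and 19.6 CPM in cluster 4 for Tom+ and Tom-. In cluster 3 the libraries differed most among clusters 1 to 7, at 210 CPM for Tom+ and 96.8 CPM for Tom-. The interval of the Tom+ over Tom- ratio of Agt lay above 0 in 4 of 9 clusters and below 0 in 1. The 4 were clusters 1, 3, 7 and 8, at folds of 1.20, 2.17, 1.17 and 1.59, and the 1 was cluster 4, at 0.683.

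Ace varied less among the progenitor clusters. It was highest in cluster 3 at 669 CPM (657 to 681), followed by cluster 5 at 600 and cluster 4 at 549, so the cluster with the least Agt was among those with the most Ace. It was lowest in clusters 8 and 9, at 97.7 CPM (91.1 to 105) and 82.1 CPM (71.8 to 93.5), which did not differ beyond counting error. Within clusters, Ace was higher in Tom+ than in Tom- in 8 of 9, with an interval above 0 in those 8. Cluster 8, with a median of 30769 UMIs per cell, was the exception at 93.8 and 108 CPM. Agtr1a was highest in cluster 7 at 80.5 CPM (74.4 to 86.9) and lowest in cluster 8 at 12.9 CPM (10.6 to 15.6). In 5 of the 8 steps down its order the neighbours did not differ beyond counting error. The interval of its Tom+ over Tom- ratio lay above 0 in 1 of 9 clusters, cluster 4.

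**Figure D4:**
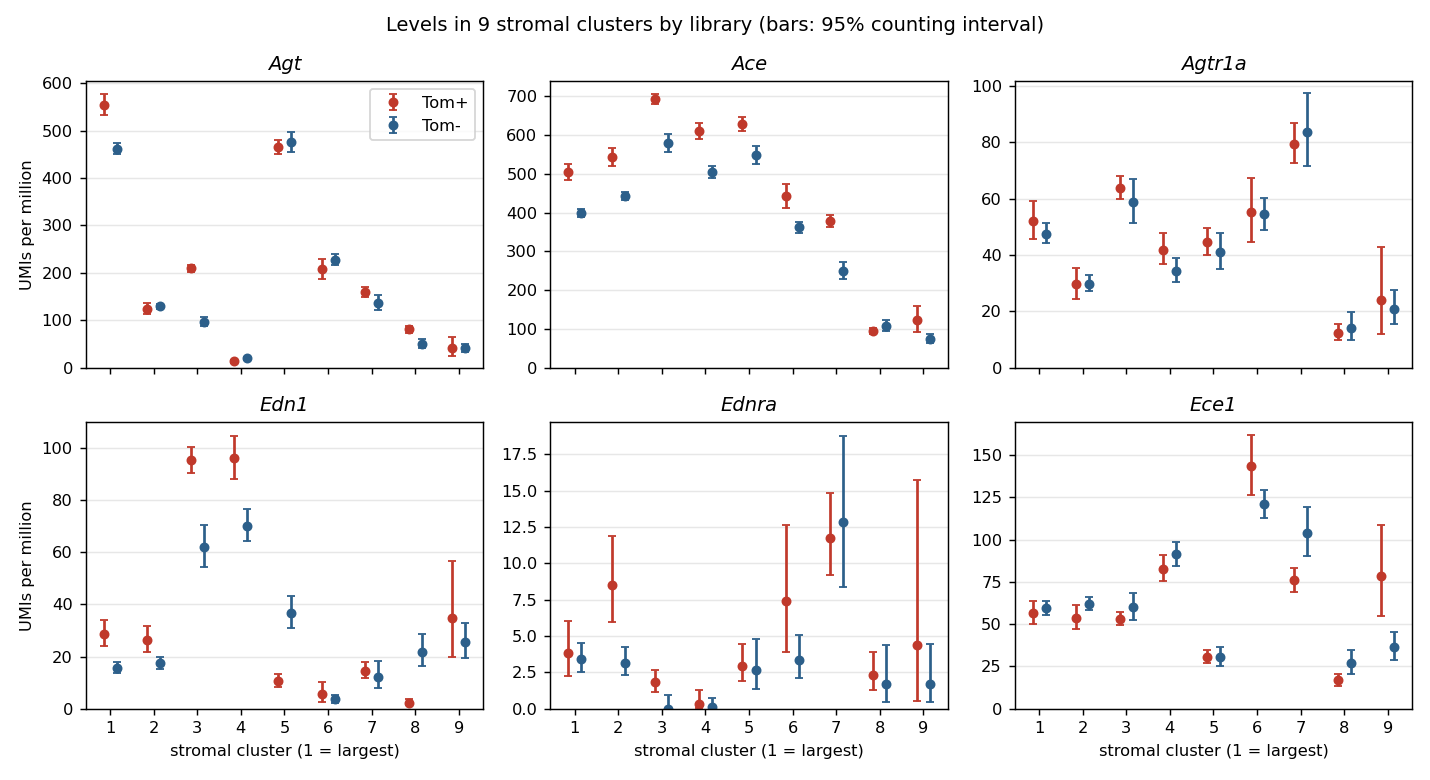
Levels of 6 of the 7 genes in CPM in 9 stromal clusters, numbered by size, in Tom+ (red) and Tom- (blue). Bars are 95% counting intervals and each vertical axis has its own scale from 0. Agt peaks in clusters 1 and 5 and is lowest in cluster 4, Edn1 peaks in clusters 3 and 4 and is lower in Tom+ in clusters 5 and 8, and Ece1 peaks in cluster 6.

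Edn1 peaked in other clusters than Agt. It was at 88.1 CPM (83.8 to 92.5) in cluster 3 and 81.3 CPM (76.4 to 86.4) in the interstitial progenitor-like cluster 4, and at 27.1 CPM or lower in the other 7. The lowest was cluster 6 at 4.09 CPM (2.84 to 5.72), 21.5 times below cluster 3. An Edn1 UMI was found in 31.8% of the cells of cluster 3, 36.3% of cluster 4 and 3.21% of cluster 6, before thinning. The direction between the libraries was not the same in every cluster. Edn1 was higher in Tom+ in 7 of 9 clusters, with intervals above 0 in 4, clusters 1 to 4, where Tom+ and Tom- were at 28.8 and 15.8, 26.4 and 17.5, 95.1 and 61.9, and 96.1 and 70.2 CPM. It was lower in Tom+ in cluster 5, at 10.7 against 36.7 CPM, and in cluster 8, at 2.32 against 21.8 CPM, with intervals below 0. In cluster 5 the share of cells with an Edn1 UMI was 8.32% in Tom+ and 6.67% in Tom-, so the higher Tom- level there came with more UMIs in 20 cells. In cluster 8 the Tom- level came from 51 UMIs in 7 cells and the Tom+ level from 14 UMIs in 8 cells. Of the stromal cells, 30.4% fell in cluster 3 in Tom+ and 7.06% in Tom-.

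Ece1 was highest in cluster 6, where Edn1 was lowest, at 125 CPM (118 to 133). It was lowest in cluster 8 at 19.6 CPM (16.7 to 22.9) and next in cluster 5 at 30.6 CPM (27.5 to 33.9). In the 3 Tom+ and 7 Tom- cells with endothelial genes it reached 432 and 367 CPM, from 19 and 25 UMIs. Over thinned Tom+ stromal cells an Ece1 UMI was found in 37.1% (32.6 to 41.8) of those with an Edn1 UMI and in 32.7% (30.9 to 34.6) of those without, and over Tom- cells in 34.5% (29.7 to 39.5) and 37.8% (36.2 to 39.3). Edn1 was found less often in cells with Agt: an Edn1 UMI was present in 11.5% (9.96 to 13.2) of thinned Tom+ stromal cells with Agt and 18.1% (16.1 to 20.1) of those without. In Tom- the shares were 5.32% (4.38 to 6.41) and 12.7% (11.4 to 14.2).

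Ednra was highest in cluster 7 at 12.0 CPM (9.76 to 14.7), with 11.8 CPM for Tom+ and 12.8 CPM for Tom-. The other 8 clusters were at 4.35 CPM or lower, and cluster 4 had 3 UMIs in 908 cells (0.233 CPM). Cluster 3 had 26 UMIs in Tom+ and 0 in Tom-. The small cluster 10 (27 cells), led by the mast cell proteases Mcpt4 and Tpsb2, had 8 Ednra UMIs, or 44.7 CPM (19.3 to 88.1). Edn1 and Ednra thus had their highest levels in different clusters, with cluster 7 at 14.0 CPM of Edn1. Ednrb had 230 UMIs in cluster 8, all in 12 Tom+ cells, 95 in 4 cells of cluster 9, 25 in 2 Tom- cells of cluster 7 and at most 3 in each of the others. Although immunoglobulin genes led cluster 8, the 139 Tom+ cells with B lineage genes had 0 Ednrb UMIs. The Tom+ stromal-class cells with macrophage genes held 230.

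Across 20 groups (18 from the 9 clusters in each library and the 2 mesothelial groups), log2 levels of Agt went most closely with Fndc5 (r = 0.95), Ppp1r14a (0.93) and Dpyd (0.93), and those of Ace with Ltbp1 (0.98), Hecw2 (0.97) and Steap3 (0.97). Agtr1a went with Mcrip1 (0.93), Kctd20 (0.93) and Plekhh3 (0.93), and Ece1 with Hes1 (0.93), Pea15a (0.91) and Lrrc32 (0.90). Ednra went with Ndufa4l2 (0.86) and Mmp3 (0.86), and Ednrb with Pepd (0.77), Stab1 (0.76) and Cd14 (0.74), of which Stab1 and Cd14 are genes of macrophages. The closest to Edn1 were Rpl29 (0.81), Anks1 (0.80) and Rps26 (0.79). Between the genes themselves, r was 0.64 for Agt with Ace, -0.37 for Agt with Edn1 and 0.013 for Edn1 with Ece1. The groups share libraries and 8166 genes were searched, so these values describe the libraries and carry no test.

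Among 20 other genes of the angiotensin pathway, 13 reached 5 CPM in stromal cells, of which 3 were past 1.5-fold higher in Tom+ and 0 lower, against 3.86% and 3.25% of all genes. Cma1, a mast cell chymase that can form angiotensin II, was at 44.0 against 21.8 CPM (log2 ratio 1.02, 0.92 to 1.12), and 2128 of its 2251 Tom+ UMIs and 1213 of its 1259 Tom- UMIs lay in 17 and 10 cells with mast cell genes. The peptidases Mme and Anpep, which break down angiotensin peptides among others, were at 17.8 against 10.7 CPM (0.74, 0.59 to 0.89) and 79.8 against 51.9 CPM (0.62, 0.55 to 0.69). Mme was among the leading genes of cluster 7, which held 10.9% of Tom+ and 3.06% of Tom- stromal cells. Whether Mme differed within clusters was not tested. The median log2 ratio was 0.24 over the 13 genes. In mesothelial cells 11 reached 5 CPM and none passed 1.5-fold between the libraries, against the shares of all genes given above, and their median was 0.051. Ren1, the renin gene, was at 0.470 and 0.622 CPM in Tom+ and Tom- stromal cells, with 0 and 1 UMIs in mesothelial cells.

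Between the classes, 6 of 13 angiotensin pathway genes were lower in mesothelial cells of Tom+ and 2 higher, and 5 of 13 were lower and 1 higher in Tom-. Of all genes, 16.2% were lower and 22.6% higher in Tom+, and 13.9% and 21% in Tom-. Whether the counts depart from these shares was not tested. Enpep, the aminopeptidase that converts angiotensin II to angiotensin III, was at 5.64 against 79.2 CPM in Tom+ and 6.46 against 90.4 CPM in Tom-, with log2 ratios of -3.81 in both. Cma1, Anpep, Mme and Igf2r were lower in both libraries, at log2 ratios of -5.29, -2.36, -2.76 and -1.42 in Tom+ and -4.76, -2.09, -1.46 and -0.79 in Tom-. The Cma1 difference rested on the stromal-class cells with mast cell genes. Leaving those cells out lowered stromal Cma1 to 2.41 CPM for Tom+ and 0.795 for Tom-. Mesothelial Cma1 was 1.13 and 0.804 CPM. Both means then lay below the 5 CPM limit, so Cma1 enters the counts of lower genes only through those cells. Nln (-1.05) was lower in Tom+. Prcp, a carboxypeptidase that can also cut angiotensin II, was higher in both, at 50.0 against 28.0 CPM in Tom+ and 45.4 against 23.7 CPM in Tom-. Thop1 (0.63) was higher in Tom+.

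Of 8 other endothelin pathway genes, 3 reached 5 CPM in stromal cells and none passed 1.5-fold between the libraries, against 3.86% of all genes higher and 3.25% lower, with a median of -0.056. In mesothelial cells 1 of 4 was lower in Tom+, against 1.16% of all genes, namely Edn2 with a log2 ratio of -1.20 (-1.95 to -0.53), and the median was -0.079. Pcsk5, a proprotein convertase, was lower in mesothelial than in stromal cells, at 14.3 against 72.5 CPM in Tom+ and 17.4 against 75.3 CPM in Tom-, 1 of 3 past the fold in each library, against 16.2% and 13.9% of all genes lower. Furin, which cuts the endothelin precursor before Ece1 does, was at 45.0 and 39.7 CPM in Tom+ and Tom- stromal cells and 42.7 and 37.4 CPM in mesothelial cells.

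Of 14 genes of receptor signalling, 12 reached 5 CPM in stromal cells and 1 passed 1.5-fold, against 3.25% of all genes lower and 3.86% higher. This was Rgs16, which was lower in Tom+ at 6.03 against 10.1 CPM (log2 ratio -0.74, -0.95 to -0.54). Rgs16 and Rgs2 encode proteins that shorten signals of Gq- and Gi-coupled receptors. In mesothelial cells 1 of 11 passed it, against 1.87% of all genes higher and 1.16% lower: Rgs2 was higher in Tom+ at 13.0 against 4.57 CPM, and 59 of its 69 Tom+ UMIs lay in the 14 macrophage-gene cells. Without those it was at 2.02 CPM. Between the classes, 3 of 11 genes were lower in mesothelial cells of Tom+ (Plcb4, Gna13 and Gnaq) and 2 higher (Arrb2 and Plcb3), and 5 of 12 were lower (Rgs16, Rgs2, Plcb4, Grk5 and Gnaq) and 1 higher (Arrb2) in Tom-. The shares of all genes were 16.2% lower and 22.6% higher in Tom+ and 13.9% and 21% in Tom-. The counts in Tom+ lay near them, and whether any count departs from them was not tested. The limits and a few cells set part of the gap between the libraries. Without macrophage-gene cells, Rgs2 in Tom+ was at 2.02 CPM in mesothelial against 14.9 CPM in stromal cells. Rgs16 in Tom+ was at 0.376 against 6.03 CPM, with a mean below 5 CPM, and Grk5 was lower by a fold of 1.47. Arrb2, a beta-arrestin, was at 18.8 against 5.91 CPM in Tom+ and 14.9 against 5.56 CPM in Tom-, and Plcb4, a phospholipase downstream of Gq, at 13.9 against 37.0 and 15.6 against 41.7 CPM.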

How the data were processed

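CD31- CD45- cells of gWAT were sorted into Tom+ and Tom- cells, and 1 library was made of each with the 10x Genomics Chromium Single Cell 3′ kit. Per the submitters' processing notes, the authors ran Cell Ranger 3.0.2 with mm10. The deposited values are whole-number UMI counts per gene and barcode, without normalization. The genes and lists described here were chosen with earlier results of these data known. Cells were kept by the study's limits on genes and mitochondrial counts. UMIs were summed per class and library and scaled to CPM. The text names the 7 genes in each comparison, pathway genes past 1.5-fold with a mean of at least 5 CPM (at most 8 per comparison, by size), and the 3 genes of most similar pattern. Other genes were named after their values were seen. Some genes that these rules name are not reported here. The limits on cells with stromal, macrophage, endothelial, mast cell or B lineage genes were set after the data were seen. No doublet caller was run, and an alternative left out the 5% of cells with the most UMIs. The other alternatives changed the mitochondrial limit, class limits, scaling, filter on low genes, shared barcodes, weights of cells or clusters, thinning and resolution. Stromal cells were clustered with scanpy 1.11.5 (2000 variable genes, 30 principal components, 20 neighbours, Leiden resolution 0.5, leidenalg 0.10.2) without correction between libraries. Likeness used log2(CPM + 1) over groups of at least 30 cells and genes of at least 20 CPM in 1 group. Intervals used scipy 1.17.1. The ratio step was tested on simulated data. With 1 library per group the study's Wilcoxon tests over cells were not used. Coordinates and transcripts are from GENCODE vM21.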

Additional observations from a re-analysis of the deposited data

Results flagged for a closer look

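Edn1 went in opposite directions between the classes in the libraries. Its log2 ratio of mesothelial over stromal cells was -0.59 in Tom+ and 0.40 in Tom-, and each interval excluded 0. The difference between the libraries was not tested, since each holds 1 sample. The Tom+ ratio was -1.30 without cells of a shared barcode and the Tom- ratio 0.26 after scaling by the median ratio.

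Ednrb did so as well, with log2 ratios of 2.14 in Tom+ and -4.79 in Tom-, again without a test of the difference. In Tom+ the ratio was 0.031 without cells of a shared barcode, and the UMIs were almost all in cells with macrophage genes.

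Cells between the class limits enter no comparison. In the 11 such Tom+ cells Ednrb was at 349 CPM (210 to 545), from 19 UMIs in 4 cells, 13 of them in a single cell, which is above both Tom+ classes. Of these 11 cells, 3 had macrophage genes, and the 30 such Tom- cells had 0 Ednrb UMIs.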

How the results depend on the processing

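No paired analysis was possible because each group has 1 library, and for the same reason no replicate could be left out. Of 80 recomputed counts of genes past 1.5-fold, 69 stayed within 1.5 times the main count. With all 7 genes counted whatever their level, 2 were higher in Tom+ stromal cells, 2 lower in Tom+ mesothelial cells and 5 lower in mesothelial cells of Tom-. The genes this added were Ednra and Ednrb, with means below 5 CPM there. The matching share of all genes was not computed. Without cells of a shared barcode, 0 genes were higher and 3 lower in Tom+ than in Tom- mesothelial cells, and 0 were higher in mesothelial than in stromal cells of Tom+. Of all genes, 286 were then higher and 328 lower in the former comparison, and 2157 were higher in the latter. Without cells with genes of other lineages, 0 were higher in both of those comparisons, against 99 and 2033 of all genes. In Tom+ against Tom- mesothelial cells, 0 were lower without the 5% of cells with the most UMIs, with the mean of each cell's own CPM, or without mesothelial cells that carried stromal genes. Of all genes, 138, 124 and 90 were lower in those settings, in that order. No count moved with mitochondrial UMIs under 5%, class limits of 20 and 3 marker UMIs, median-of-ratios scaling or the removal of the shallower copies of a barcode, the last an alternative added after seeing the data. A stable count can hide a change of gene, as with equal cluster weights in stromal cells. Scaling by the median ratio changed the split of all genes in stromal cells from 377 higher and 318 lower to 261 and 394, and left Edn1 at 0.71. Of 234 recomputed log2 ratios, 166 stayed within the counting interval and 0 called values changed sign. Leiden resolution 1.0 gave the highest Agt as 499 CPM, the highest Ednra as 9.44 CPM and the lowest Agtr1a as 10.5 CPM. A level under 3 counts per group, 0.564 CPM in Tom+ mesothelial cells, could not be told from 0.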
